A study of Mus musculus with 64 samples.

Results

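Genes of the cells that wrap brain blood vessels were followed through 16 striatal RNA libraries. Of 9 such genes, 3 are classical genes of vascular smooth muscle (Acta2, Myh11 and Tagln) and 6 are used as genes of pericytes (Pdgfrb, Rgs5, Kcnj8, Abcc9, Vtn and Notch3). They were chosen by name, as known genes of these cell types, out of 23420 genes listed in the files, with earlier results of these data known. All 9 passed the filter on low counts, which 15446 genes passed. The question was whether the smooth muscle genes and the pericyte genes move together from library to library.

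The study compared striatum of mice lacking Csnk1e, the gene of casein kinase 1 epsilon, with wild-type striatum. It used 16 untreated mice at about 50 days of age, 8 labelled Csnk1e knockout and 8 labelled wild type, with tissue of the left and right striatum pooled for each mouse. Poly(A) RNA was sequenced, each library in 4 lanes on 2 flow cells, and the 4 lane files of a mouse were summed, so that n counts mice. Which part of Csnk1e was deleted, the strain and the sex of the mice are not given here.

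Smooth muscle cells ring arteries and arterioles and set vessel diameter, with an actin and myosin apparatus built from genes that serum response factor and myocardin switch on through CArG boxes. Pericytes sit on capillaries within the basement membrane, are recruited by platelet-derived growth factor from the endothelium, and are needed for the blood-brain barrier. Both cell types together are called mural cells. Several of their genes are shared: Pdgfrb and Notch3 are also expressed by smooth muscle cells, and Rgs5 by smooth muscle cells of small arteries.

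Promoters of 3 members are shown, one for each pattern described here. Acta2 was called with Myh11 across the libraries, Vtn with Pdgfrb among others, and Rgs5, like Tagln, was called with no other member on Pearson's r. Each line gives the 250 bases before the RefSeq start (GRCm38.p6), read 5′ to 3′ on the strand of the gene. Capitals mark CArG boxes with at most 1 middle letter other than A or T, and the core letters TGGGAA bound by RBPJ, the DNA-binding partner of Notch receptors.
Acta2 (chr19:34255374-34255623, minus strand): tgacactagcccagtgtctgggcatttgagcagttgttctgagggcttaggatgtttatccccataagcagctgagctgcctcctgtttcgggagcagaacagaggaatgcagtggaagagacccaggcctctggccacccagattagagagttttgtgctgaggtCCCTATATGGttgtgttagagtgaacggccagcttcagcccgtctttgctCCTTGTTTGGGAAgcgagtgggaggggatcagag
Vtn (chr11:78498870-78499119, plus strand): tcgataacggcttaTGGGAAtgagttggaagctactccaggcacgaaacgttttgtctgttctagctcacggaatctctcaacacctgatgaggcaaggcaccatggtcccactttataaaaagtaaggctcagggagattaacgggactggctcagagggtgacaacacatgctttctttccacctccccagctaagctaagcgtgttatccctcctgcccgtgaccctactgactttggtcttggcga
Rgs5 (chr1:169655251-169655500, plus strand): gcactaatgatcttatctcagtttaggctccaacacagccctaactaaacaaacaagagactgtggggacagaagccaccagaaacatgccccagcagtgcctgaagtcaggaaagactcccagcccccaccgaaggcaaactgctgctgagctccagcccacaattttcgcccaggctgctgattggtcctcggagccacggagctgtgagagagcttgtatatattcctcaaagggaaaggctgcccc

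The Acta2 window held 2 such CArG boxes, CCCTATATGG at 84 to 75 bases before the start and CCTTGTTTGG at 34 to 25 bases before it. TGGGAA lay at 27 to 22 bases before the start of Acta2 and overlapped the second box. In Vtn, TGGGAA lay at 236 to 231 bases before the start, and the Rgs5 window held neither motif. Both strands were searched in the 6 members with a window, and Abcc9 also held TGGGAA (221 to 216 bases before its start), whereas Kcnj8 and Notch3 held neither. Myh11, Tagln and Pdgfrb had no window, so Acta2 was the only smooth muscle gene searched and the kinds cannot be compared. Of all 32817 windows of this length, 8.6% held the relaxed CArG box, 1.47% the strict form with only A or T in the middle, which no member window held, and 21.6% held TGGGAA. These matches describe letters and were not tested as binding sites. GENCODE M21 starts Acta2, Vtn and Abcc9 further upstream, inside these windows, so the distances hold for the RefSeq start alone. Both CArG boxes of Acta2 lie within its GENCODE gene.

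Gene reads per library numbered 22088005 to 30238947, over 17953 to 18339 detected genes. Csnk1e went against the labels: it stood at 38.0 to 79.5 CPM (counts per gene relative to the TMM-scaled size of the library) in libraries labelled knockout and at 42.1 to 86.2 CPM in those labelled wild type. A gap between 44.9 and 72.2 CPM left 3 labelled knockouts and 4 labelled wild types below it, so genotypes are given throughout as labelled. The deleted part is not known here, so the level of Csnk1e RNA cannot settle the genotype of a mouse. Choroid plexus genes were far higher in 2 libraries, labelled knockout 1 and wild type 7, with list scores of 3.84 and 4.40 on the log2 scale against -1.25 to 0.70 in the others. The number in the deposited sample names, here called the library number, averaged 6.625 in labelled knockouts and 10.75 in labelled wild types. What that number records is not stated.

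Per length of exon, Vtn was the highest of the 9 members. Vtn encodes vitronectin, a matrix protein that brain pericytes secrete, and it averaged 35.8 CPM per kb of exon (28.0 to 44.7 over 16 libraries). Rgs5, a regulator that shortens G protein signals, followed at 14.02 (10.99 to 16.4) CPM per kb. Neither range overlapped any other. Pdgfrb, the receptor for platelet-derived growth factor B, averaged 6.65 CPM per kb, Tagln, which encodes the actin-binding protein transgelin, 5.38, Acta2, smooth muscle actin, 4.66, and Notch3, a Notch receptor of mural cells, 3.52. Each of these 4 overlapped its neighbour in this order. Below them on average stood Abcc9 at 2.06, Kcnj8 at 1.99 and Myh11, the smooth muscle myosin heavy chain, at 1.33 CPM per kb, again with overlapping ranges. None of these ranges overlapped that of Notch3. The lowest Acta2 value (2.499) lay below the highest of Abcc9 (2.567) and Kcnj8 (2.525). Abcc9 and Kcnj8 encode the sulfonylurea receptor SUR2 and the pore Kir6.1 of an ATP-sensitive potassium channel.

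Member loci in GRCm38 (GENCODE M21) lay apart, with 1 exception. Acta2 lies at chr19:34241090-34255590, Myh11 at chr16:14194535-14291372 and Tagln at chr9:45929619-45936058. Vtn lies at chr11:78499091-78502324, Rgs5 at chr1:169655501-169695813, Notch3 at chr17:32120820-32166852 and Pdgfrb on chromosome 18. Kcnj8 (chr6:142564837-142571614) and Abcc9 (chr6:142587862-142702315) are neighbours with 16.2 kb and 0 annotated genes between them. Tagln overlaps Pcsk7, a protein-coding gene on the other strand at a mean of 34.6 CPM, and antisense genes overlap Tagln, Abcc9 and Notch3. The kit marks strand, but the strand setting of the counting is not given, so reads of such pairs may not be told apart. Tagln and Pcsk7 had r = 0.37 over the 16 libraries. Acta2 reads in coding sequence can also match other actin genes, so its level is less certain.

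Acta2 and Myh11 were the most variable of the 9 members from mouse to mouse. Acta2 ranged 2.49-fold over the 16 libraries and Myh11 2.40-fold, while Tagln ranged 1.67-fold and the 6 pericyte genes ranged from 1.49-fold (Rgs5) to 1.77-fold (Kcnj8). The coefficient of variation was 21.2% for Acta2 and 23.8% for Myh11, against 6.16% and 6.21% from read counting alone. It was 12.1% for Vtn and 12.7% for Pdgfrb, against 2.32% and 3.27% from counting. Kcnj8, with as few as 92 reads in a library, had the smallest margin, at 14.9% against 8.77%. Spread between mice thus exceeded counting error for every member, and counting error covers reads, not molecules.

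Between the labelled genotypes no member passed the test. By edgeR's quasi-likelihood test over 15446 genes with Benjamini-Hochberg adjustment, 0 of 9 members were called and all had an adjusted p of 0.997. The background was the same, with 0% of tested genes called. Members and lists were compared in bulk tissue, where fewer cells of a type and less RNA per cell cannot be told apart.

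Acta2 stood lowest at 8.71, median 11.1 and highest at 13.6 CPM in the 8 labelled knockouts, and at 5.49, 9.42 and 12.03 CPM in the 8 labelled wild types. Myh11 stood at 8.86, 11.3 and 14.9 CPM in the labelled knockouts and at 6.22, 9.46 and 10.9 CPM in the labelled wild types. Both groups overlapped for each gene, although the lowest 3 libraries of each gene were labelled wild type. The log2 fold change, labelled knockout minus labelled wild type, was 0.32 ± 0.128 (SE) for Acta2 (unadjusted edgeR p = 0.0230) and 0.36 ± 0.136 for Myh11 (unadjusted edgeR p = 0.0158). For Tagln the groups also overlapped, at 8.29, 11.9 and 13.5 CPM in the labelled knockouts and 8.06, 10.05 and 11.7 CPM in the labelled wild types. Its log2 fold change was 0.20 (95% confidence interval -0.01 to 0.40).

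Among pericyte genes the log2 fold changes ran from 0.09 to 0.20. Notch3 stood at 24.7, 30.2 and 36.6 CPM (lowest, median, highest) in the labelled knockouts and at 23.3, 26.7 and 30.5 CPM in the labelled wild types. The groups overlapped, and the log2 fold change was 0.20 ± 0.091 (SE; unadjusted edgeR p = 0.0446). Vtn stood at 64.1, 74.3 and 90.7 against 56.9, 67.5 and 81.5 CPM, Pdgfrb at 29.5, 38.7 and 44.9 against 29.96, 35.4 and 39.7 CPM. Their log2 fold changes were 0.13 (interval -0.02 to 0.29) and 0.11 (-0.06 to 0.28), and the groups overlapped for each gene. Rgs5 was spread unevenly: the labelled knockouts stood at 58.2, 67.5 and 70.6 CPM and the labelled wild types at 50.0, 58.6 and 74.6 CPM. The labelled wild types held both the highest Rgs5 library and the 4 lowest, at 50.0 to 53.9 CPM, and the log2 fold change was 0.13 (interval -0.05 to 0.31). Kcnj8 and Abcc9 each differed by 0.09 on the log2 scale, with intervals of -0.13 to 0.31 and -0.09 to 0.27.

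In counts, 3 of 9 members (Acta2, Myh11 and Notch3) had an unadjusted edgeR p under 0.05 in the direction of labelled knockout, where 1.91% of all tested genes did (3.41% in either direction). The count was 5 without the library labelled wild type 7. It was 2 without any 1 of 9 libraries, knockout 1, 2, 4, 5 and 6 and wild type 2, 4, 5 and 8, with Notch3 lost in each but knockout 5, where Acta2 was lost. All 9 log2 fold changes were above 0, against 50.3% of tested genes. The median was 0.32 for smooth muscle genes and 0.12 for pericyte genes, with 0 over all genes. The members were chosen with results of these data known and move with each other, so their shared sign is a description. With the library number as a covariate, 0 of 9 had an unadjusted edgeR p under 0.05: Acta2 kept a log2 fold change of 0.29 and Tagln of 0.20, Myh11 had 0.22, and Vtn and Pdgfrb had 0.02 and -0.01.

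**Figure D1:**
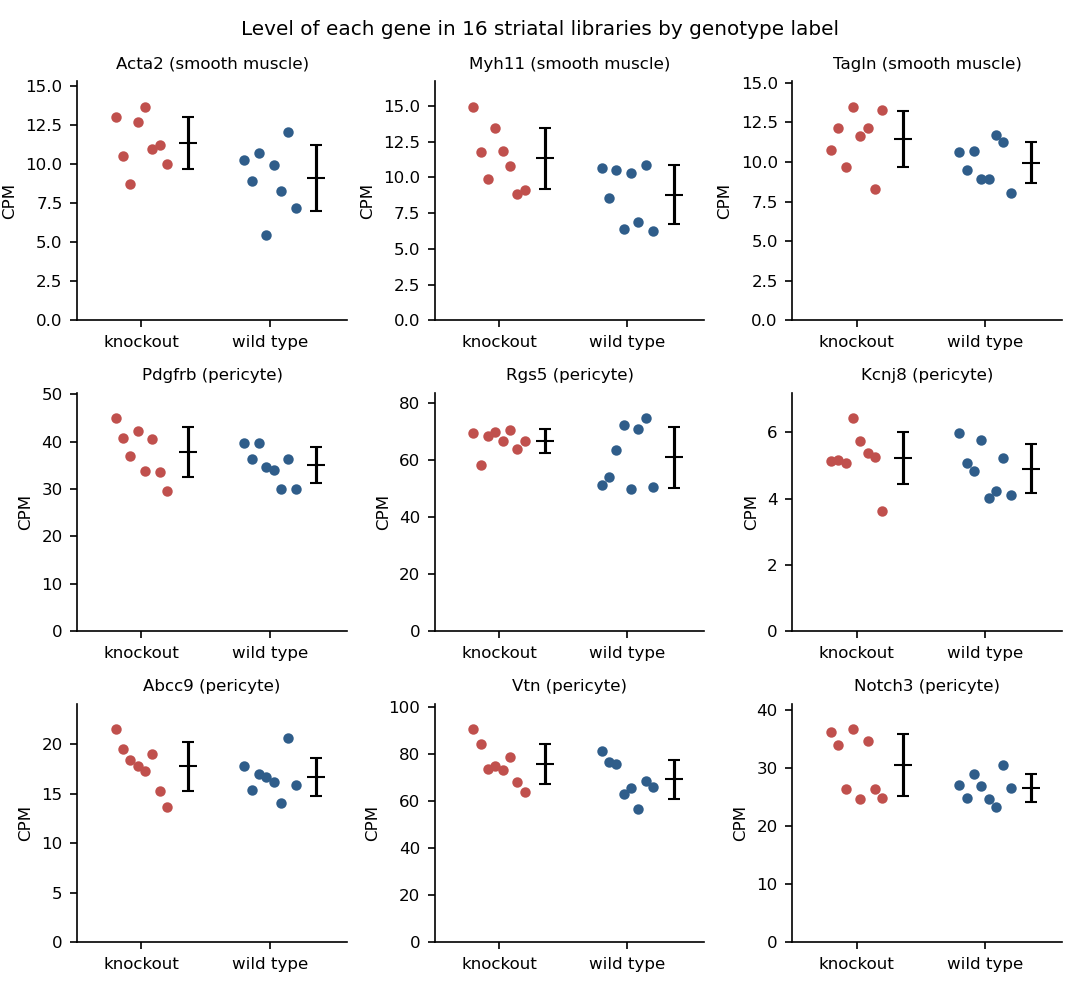
Level of each member in CPM (vertical axis, from 0, own scale in each panel) in the 8 libraries labelled knockout and the 8 labelled wild type, 1 point per mouse, with mean and SD. The groups overlap in all 9 panels, and Acta2 and Myh11 have the widest relative spread.

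Genes known to work with the members were tested in the same fit, and 0 of them were called. Of 18 Notch pathway genes, 10 lay above 0 and 8 below, with a median log2 fold change of 0.03. Jag1, a Notch ligand, had the smallest p (log2 fold change 0.21 ± 0.079, SE, unadjusted edgeR p = 0.0157), and Dll1, another ligand, had 0.14. Of 6 genes of platelet-derived growth factor signalling 3 lay above and 3 below 0, with Pdgfa at -0.10 and Pdgfra at 0.09. The other ATP-sensitive channel genes, Kcnj11 and Abcc8, stood at -0.03 and -0.01. Of 5 tested integrin genes for vitronectin receptors, Itgb5 stood at 0.09 and Itgav at -0.05. Of serum response factor and its coactivators, 3 of 4 were tested, and Mkl2 stood at 0.10 and Mkl1 at 0.01.

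Further genes of mural cells were not called either. Of 13 tested other smooth muscle genes, 9 lay above 0 and 4 below, with a median of 0.08. Pln, the calcium pump regulator phospholamban, stood at 0.31 and Lmod1, an actin filament nucleator, at -0.15, neither with an unadjusted edgeR p under 0.05. Of 21 other pericyte genes, 15 lay above 0, with a median of 0.10. Cspg4, the NG2 proteoglycan that oligodendrocyte precursors also carry, had 0.19, with an unadjusted edgeR p of 0.0314. The 18 endothelial genes had 11 above and 7 below 0 and a median of 0.01, with Emcn at 0.11 and Cldn5 at -0.13.

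Across libraries Acta2 and Myh11 moved together, and so did Pdgfrb, Vtn, Abcc9 and Notch3. Myh11 linked them, since it was also called with each of those 4 pericyte genes. Of 36 pairs of members, 12 were called on Pearson's r of log2 CPM (16 libraries, two-sided permutation test with 100000 resamples, Benjamini-Hochberg over the 36 pairs, adjusted p under 0.05), and 11 on Spearman's rho. All 12 called r were positive, from 0.65 to 0.88. For scale, 2.05% of all pairs of tested genes reached the smallest called r, and 49.9% had an r above 0, against 35 of 36 member pairs. The members were chosen with earlier results of these data known, which the permutation p leaves out of account, so this contrast is a description. Of the 12 calls, 11 had an unadjusted permutation p under 0.05 without the 2 libraries farthest from the median of the first gene. The exception was Vtn with Notch3, whose r was 0.67 (rho 0.64, adjusted permutation p = 0.0164 for r). Without the libraries labelled knockout 1 and wild type 6 it became 0.50 (unadjusted permutation p = 0.0706). Leaving out any 1 library gave 0.58 to 0.73 for this pair. Without its extreme libraries a gene has a narrower range, so a lower r does not show that a relation rested on them.

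Within smooth muscle, 1 of 3 pairs was called. Acta2 and Myh11 had r = 0.88 (95% confidence interval 0.67 to 0.96) and rho = 0.86, with an adjusted permutation p of 0.00036 for r, whose raw value of 1e-05 is the smallest that 100000 resamples can give. Myh11 was the gene most like Acta2 among all 15445 other tested genes, and Acta2 ranked 6 for Myh11. Their lowest libraries were labelled wild type 4 and 8, at 5.49 and 7.16 CPM of Acta2 and 6.37 and 6.22 CPM of Myh11, and r was 0.80 without them. Tagln followed less closely: its r was 0.53 with Acta2 (rho 0.46, adjusted permutation p = 0.0782 for r and 0.140 for rho) and 0.54 with Myh11 (rho 0.61, adjusted permutation p = 0.0769 for r and 0.0489 for rho). Without the same 2 libraries these 2 values fell to 0.27 and 0.28, and leaving out any 1 library gave 0.43 to 0.64 and 0.41 to 0.66. On flow cell 2 alone Tagln was called with Myh11 (r = 0.65, adjusted permutation p = 0.0340). With Acta2 from flow cell 1 and Tagln from flow cell 2, that pair was called (r = 0.67, adjusted permutation p = 0.0171). On flow cell 1 alone Tagln had r = 0.41 with Acta2 and 0.33 with Myh11, both uncalled.

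Within the pericyte genes, 7 of 15 pairs were called, and all 7 lay among the 10 pairs that leave out Rgs5. Pdgfrb and Vtn were the closest pair, with r = 0.87 (interval 0.65 to 0.95), rho = 0.83 and an adjusted permutation p of 0.00036. Pdgfrb was also called with Notch3 (r = 0.82, rho = 0.80, adjusted permutation p = 0.00108) and with Abcc9 (r = 0.80, rho = 0.83, adjusted permutation p = 0.00198). Abcc9 was called with Notch3 (r = 0.77, rho = 0.74) and with Vtn (r = 0.72, rho = 0.69), with adjusted permutation p of 0.00324 and 0.0072. Vtn ranked 6 of 15445 among the genes most like Pdgfrb. In these libraries Pdgfrb was highest in those labelled knockout 1 and knockout 4 (44.9 and 42.3 CPM) and lowest in knockout 8 and wild type 8 (29.5 and 29.96 CPM).

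Kcnj8 was called only with Pdgfrb, and by r alone (r = 0.66, adjusted permutation p = 0.0166, rho = 0.48, adjusted permutation p = 0.137). With Abcc9, its neighbour on chromosome 6 and the gene of its partner subunit, it had r = 0.55 and rho = 0.45 (adjusted permutation p = 0.0757 and 0.144). Abcc9 ranked 275 among the genes most like Kcnj8. Kcnj8 had the fewest reads of the 9 genes.

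Rgs5 was not called with any other pericyte gene. None of its 8 pairs was called, with r from -0.12 to 0.46 and a median of 0.20. With Pdgfrb it had r = 0.14 (interval -0.39 to 0.59) and with Vtn r = -0.12 (interval -0.58 to 0.40), and Vtn ranked 10230 among the genes most like Rgs5. The interval for Pdgfrb with Rgs5 ended below that for Pdgfrb with Vtn, but the 2 share Pdgfrb and their difference was not tested. The library labelled wild type 6 shows the split in single values: it had 70.7 CPM of Rgs5, among the highest, and 56.9 CPM of Vtn, the lowest of all. Wild type 1 was the reverse, with 51.2 CPM of Rgs5 and 81.5 CPM of Vtn. Rgs5 had at least 1130 reads in every library, and its counting error was 2.47% against a coefficient of variation of 13.1%.

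**Figure D2:**
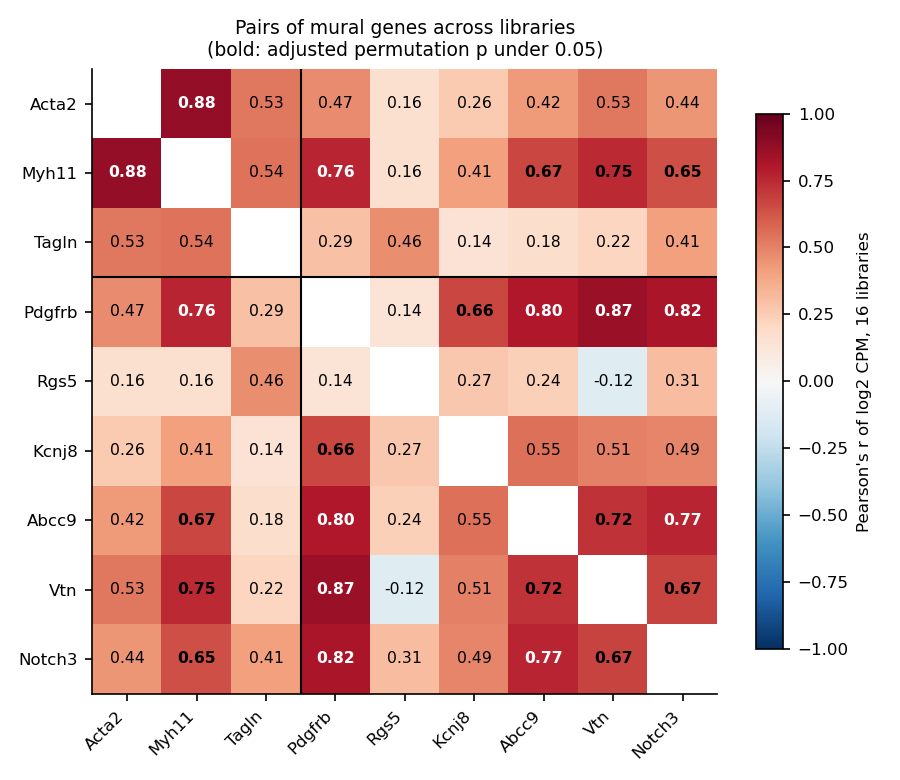
Pearson's r of log2 CPM over 16 libraries for every pair of the 9 members (colour and number), with lines between the smooth muscle and the pericyte genes and bold numbers for the 12 pairs called. The Rgs5 and Tagln rows hold no bold number, and Myh11 holds all 4 bold numbers between the kinds.

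Between the kinds, 4 of 18 pairs were called, and Myh11 was the smooth muscle gene in all 4. Myh11 had r = 0.76 with Pdgfrb (rho 0.73, adjusted permutation p = 0.00324), 0.75 with Vtn (rho 0.66, adjusted permutation p = 0.00447), 0.67 with Abcc9 (rho 0.77, adjusted permutation p = 0.0166) and 0.65 with Notch3 (rho 0.59, adjusted permutation p = 0.0185 for r and 0.0542 for rho). Without the libraries labelled wild type 4 and 8 these were 0.78, 0.75, 0.79 and 0.77. Acta2 had r of 0.16 to 0.53 with the 6 pericyte genes and Tagln 0.14 to 0.46, with 0 pairs called for either. The difference between Myh11 and Acta2 in these values was not tested. Over all 18 pairs the median r was 0.42, against 0.54 within smooth muscle and 0.55 within the pericyte genes, or 0.70 there without Rgs5.

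The calls between the kinds changed with single libraries and settings. Without the library labelled knockout 1, which was highest in Myh11 (14.9 CPM), Pdgfrb and Vtn (90.7 CPM), 2 of the 4 were called, Myh11 with Pdgfrb (r = 0.70) and with Vtn (r = 0.68). The same 2 pairs were called without both choroid plexus libraries (0.70 and 0.70). With each gene centred within its labelled genotype, Myh11 with Notch3 was no longer called (r = 0.54, adjusted permutation p = 0.0642). Myh11 stayed called there with Pdgfrb (0.76), Vtn (0.69) and Abcc9 (0.66). Once each gene was fitted on the library number and the residuals compared, 0 of the 18 pairs were called: Myh11 had 0.56 with Pdgfrb (adjusted permutation p = 0.104) and 0.53 with Vtn. Across all 36 pairs, 8 of the 12 calls were kept in every one of 16 repeats that left out 1 library. These 8 were Acta2 with Myh11, Myh11 with Pdgfrb and with Vtn, and the 5 pairs Pdgfrb-Abcc9, Pdgfrb-Vtn, Pdgfrb-Notch3, Abcc9-Vtn and Abcc9-Notch3.

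**Figure D3:**
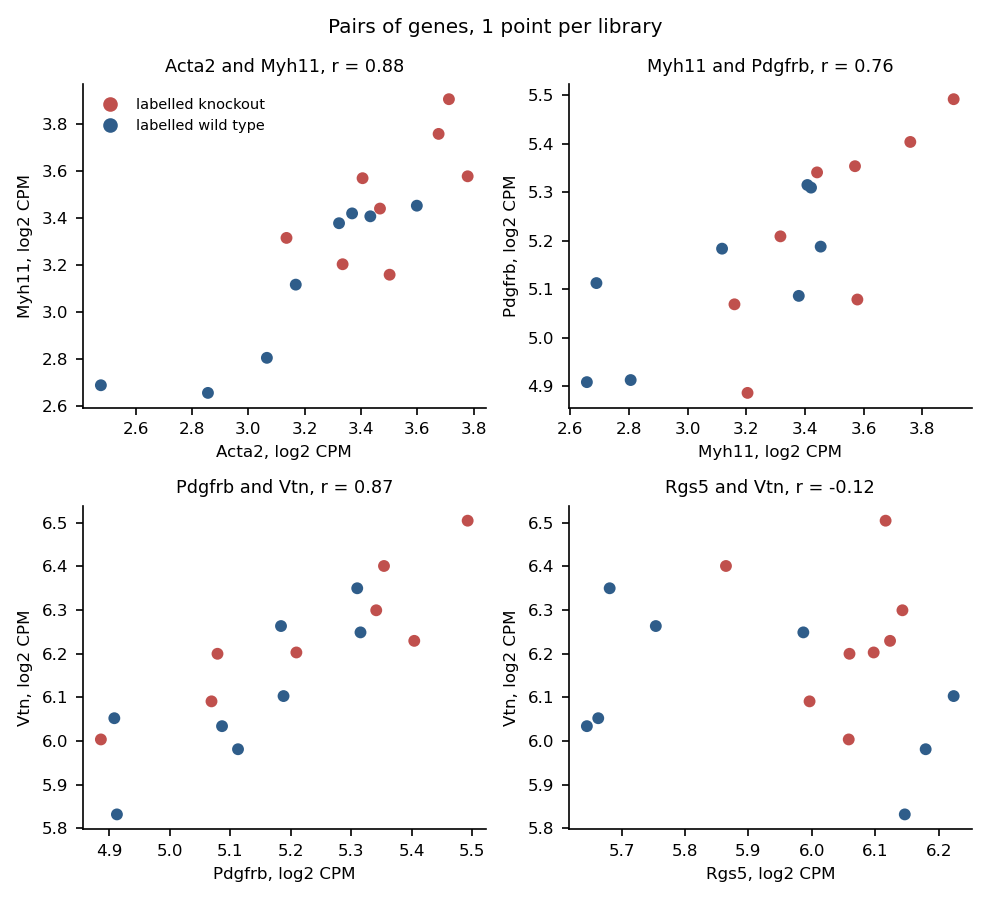
Level in log2 CPM of one member against another, 1 point per library, for Acta2 and Myh11 (r = 0.88), Myh11 and Pdgfrb (0.76), Pdgfrb and Vtn (0.87) and Rgs5 and Vtn (-0.12). The first 3 panels rise, and the Rgs5 panel has no direction.

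A score per kind, the mean over its members of log2 CPM centred per gene, summarised each library. The smooth muscle score ran from -0.57 to 0.38 (SD 0.27) and the pericyte score from -0.23 to 0.25 (SD 0.15). The 2 scores had the same sign in 13 of 16 libraries, with r = 0.62 and rho = 0.66 as a description. In the libraries labelled knockout 1 and 4 both kinds were high, at 0.34 and 0.38 for smooth muscle and 0.25 and 0.20 for pericyte genes. In wild type 8 both were low, at -0.50 and -0.20.

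The kinds parted in single libraries. Wild type 4 had the lowest smooth muscle score, -0.57, with a pericyte score of 0.00: its Acta2 was 5.49 and its Myh11 6.37 CPM, and its Tagln 8.93 CPM, all below their medians. Its pericyte genes were split: Rgs5 (72.4 CPM), Kcnj8 (5.77 CPM) and Notch3 (26.8 CPM) lay above their medians of 66.6, 5.16 and 26.7 CPM. Vtn (63.1 CPM, the second lowest), Pdgfrb (34.5 CPM) and Abcc9 (16.6 CPM) lay below theirs. Knockout 8 had the lowest pericyte score, -0.23, with a smooth muscle score of 0.08. Tagln alone carried that score, at 13.3 CPM, the second highest, while its Acta2 (10.01 CPM) and Myh11 (9.14 CPM) lay below their medians of 10.4 CPM each. Knockout 3 also had opposite signs, at -0.10 for smooth muscle and 0.03 for pericyte genes. Knockout 5 had 0.29 and 0.0021, of the same sign. The pericyte scores of knockout 5 and wild type 4 (0.0041) were near 0, so their signs are uncertain. Without wild type 4 the r of the scores was 0.75, and without wild type 8 it was 0.55. Within labelled genotypes it was 0.51, without both choroid plexus libraries 0.54, and between residuals after the library number 0.47 (rho 0.44).

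**Figure D4:**
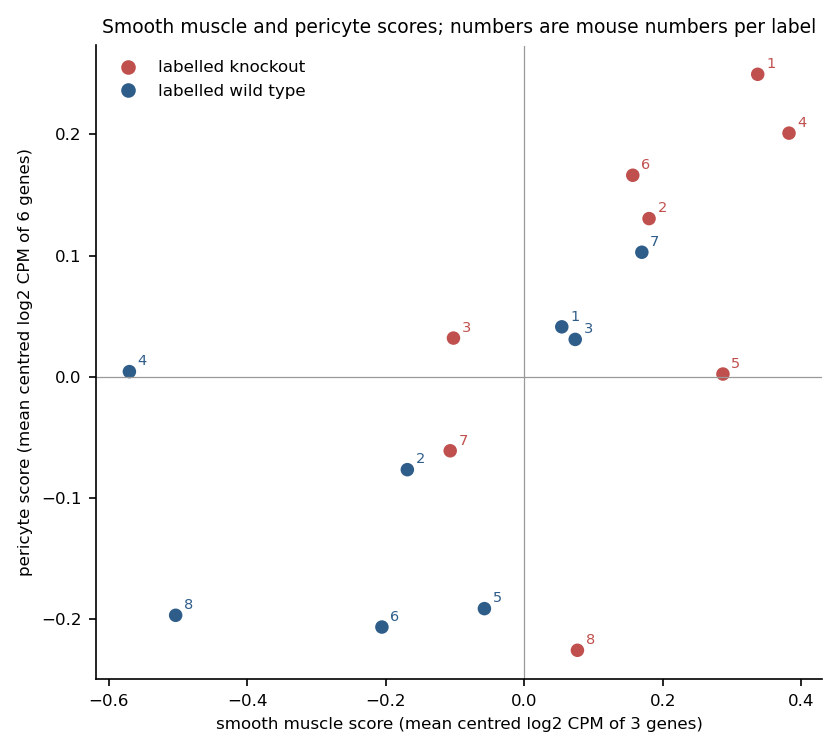
Smooth muscle score against pericyte score (both log2 units, centred at 0), 1 point per library with its mouse number, by labelled genotype. Most libraries lie in the lower left or upper right, 13 of 16 with the same sign, and wild type 4 lies far to the low end of the smooth muscle score at a pericyte score of 0.00.

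Scores of other vessel wall cells moved with members of each kind. Of 81 correlations of the 9 members with 7 cell type scores, the library number and the gene reads, 6 were called by r (two-sided permutation test, Benjamini-Hochberg over the 81). Acta2 and Myh11 followed the score of 13 vascular and meningeal fibroblast genes, with r = 0.75 (adjusted permutation p = 0.0251, rho 0.69, adjusted permutation p = 0.0763, not called by rho) and r = 0.77 (adjusted permutation p = 0.0189, rho 0.74, adjusted permutation p = 0.0332). The choroid plexus libraries, knockout 1 and wild type 7, had the highest fibroblast scores, 0.70 and 0.62. Without them the values were 0.76 and 0.79, and within labelled genotypes 0.76 and 0.80. Wild type 4 and 8, lowest in the fibroblast score (-0.52 and -0.55) and in Acta2 and Myh11, stayed in these values. The relation without them was not tested. The share of tested genes with an r at least that of Acta2 was 0.673%. The summed level of the fibroblast list ran from 144 to 266 CPM in labelled knockouts and from 126 to 286 CPM in labelled wild types. Much of that sum was Pdgfra, which averaged 75.3 CPM in labelled knockouts and 70.8 CPM in labelled wild types. Igf2 averaged 40.2 and 38.9 CPM. The part of the fibroblast list in the smooth muscle values was not tested.

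Pdgfrb and Abcc9 followed the score of 18 endothelial genes, each with r = 0.68 (adjusted permutation p = 0.0468), called by r alone (rho 0.62 and 0.59, adjusted permutation p = 0.126 and 0.141). A share of 0.686% of tested genes had an r at least as high. Without knockout 1 and wild type 6 these fell to 0.49 and 0.47, over a narrower range of the score. Notch3 and Vtn had r = 0.65 each and Kcnj8 0.60, uncalled, though Notch3 was called by rho (0.74, adjusted permutation p = 0.0332). Acta2 had 0.12 with the endothelial score, Tagln 0.02, Rgs5 0.13 and Myh11 0.38. Residuals after the endothelial score left 6 of 36 pairs called, Acta2 with Myh11 at r = 0.90, Myh11 with Pdgfrb at 0.74 and with Vtn at 0.71, and Pdgfrb with Vtn at 0.76, with Notch3 at 0.68 and with Abcc9 at 0.63. The other 6 calls were lost, 4 of them between pericyte genes: Abcc9 with Notch3 (0.58) and with Vtn (0.51), Vtn with Notch3 (0.44) and Pdgfrb with Kcnj8 (0.44). Myh11 with Abcc9 (0.60) and with Notch3 (0.57) were the others. The summed endothelial level was 700 to 842 CPM in labelled knockouts and 663 to 827 CPM in labelled wild types, and its part in the pericyte values was not tested.

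The library number moved with Vtn and Pdgfrb. Vtn had r = -0.84 (rho -0.82, adjusted permutation p = 0.0081) and Pdgfrb r = -0.77 (rho -0.74, adjusted permutation p = 0.0189), so both fell as the number rose. Among 15446 tested genes Vtn ranked 3 and Pdgfrb 10 by lowest r, and 0.0647% of genes had an r as low as that of Pdgfrb. Within labelled genotypes the values were -0.81 and -0.75, and without the first and last numbered libraries -0.82 and -0.66. Myh11 had -0.63 (rho -0.56, adjusted permutation p = 0.0660), Kcnj8 -0.56 and Abcc9 -0.49, while Acta2 had -0.32 and Rgs5 0.06. Gene reads per library had r of -0.26 to 0.15 with the members, with 0 of 9 called.

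**Figure D5:**
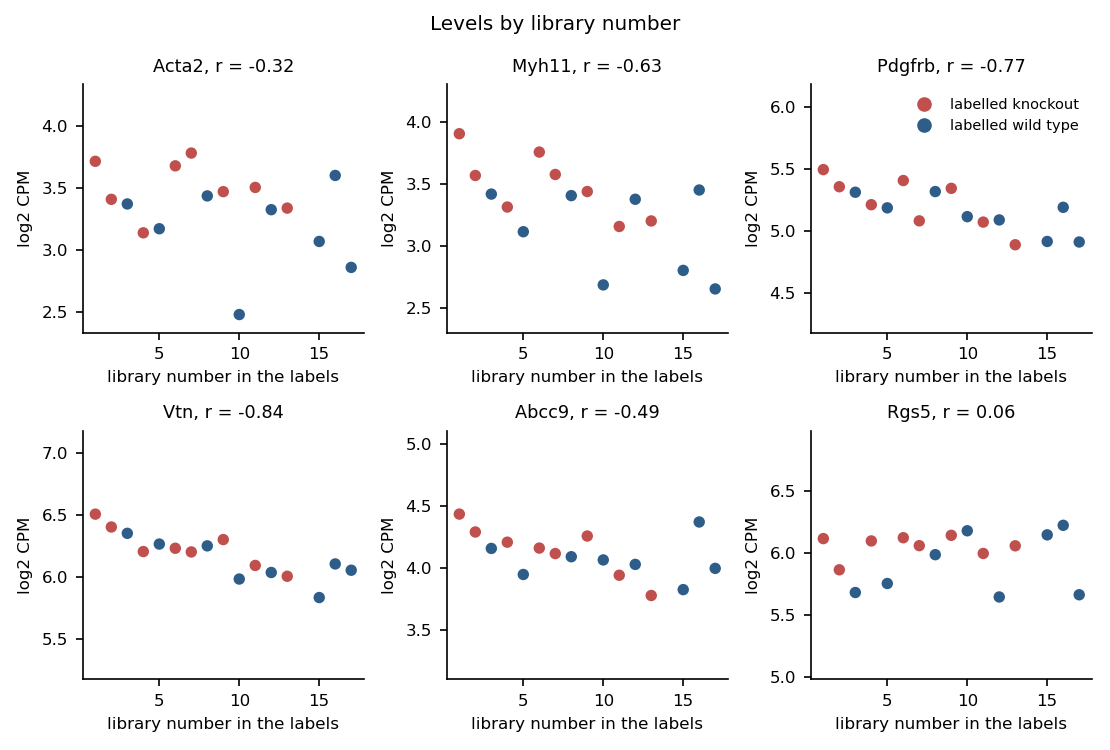
Level in log2 CPM against the library number for 6 members, 1 point per library. Vtn (r = -0.84) and Pdgfrb (-0.77) slope down, whereas Rgs5 (0.06) shows no slope.

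The genes most like each member over the 16 libraries are given as a description without a test, with the members themselves left out. For Acta2 they were Col1a1 (r = 0.85), a collagen chain of fibroblasts, Anpep (0.84), an aminopeptidase of pericytes, and Zfp112 (0.81). For Myh11 they were Podxl (0.92), a sialomucin of vessel lining, Serping1 (0.91), the C1 inhibitor, and Amot (0.89). Pdgfrb had Lamb2 (0.92), a laminin chain of the vascular basement membrane, with Ptprb (0.92) and Flt1 (0.90), both endothelial receptors. Vtn shared Lamb2 (0.90) with Pdgfrb and had Gpr116 (0.92) and Polr2a (0.90), the latter a subunit of RNA polymerase II.

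For Abcc9 they were Tns1 (0.90), Cdc14b (0.89) and Il6st (0.88), and for Notch3 Asxl1 (0.90), Lrch1 (0.89) and the mechanosensitive channel gene Piezo1 (0.89). Rgs5 had Tnc (0.83), Gucd1 (0.82) and Rpe65 (0.82), Kcnj8 had BC022687 (0.84), Caprin2 (0.80) and Acsf2 (0.79), and Tagln had Brwd1 (0.83), Zfp810 (0.83) and Rnf149 (0.82).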

How the data were processed

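The authors deposited unnormalized counts of reads for 23420 genes, in 64 files, 1 for each lane of each mouse. Per the labels' protocols, libraries came from a stranded oligo-dT kit. Tools in the submitters' processing notes are TopHat2 2.0.0, HTSeq 0.6.1p1, FastQC 0.10.1 and edgeR 2.14, on mm10 (assembly GRCm38). Not given in the sources used here are annotation and strand setting. The 5 summary rows stayed out of library sizes: 21.1% to 22.9% of reads were not unique, 18.0% to 19.8% had no gene and 0.765% to 0.834% were ambiguous. Lanes of a mouse differed by no more than sampling noise (chi-square per degree of freedom 1.00 to 1.03, against 5.91 to 35.2 between mice) and were summed. The labels name 16 separate mice.

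Labelled genotypes were compared with edgeR 4.0.16 (R 4.3.3), quasi-likelihood F test, TMM, filterByExpr and no covariate. Correlations used log2 CPM with a prior count of 2, in Python 3.11.15 with numpy 2.4.6 and scipy 1.17.1. Intervals are 95%. Scripts were tested on simulated data. Gene positions came from GENCODE M21 and promoters from RefSeq (GRCm38.p6). Alternatives included DESeq2 1.42.0, limma 3.58.1, other scalings and filters, single flow cells, covariates and leaving out each library. The named genes were the 9 members, Csnk1e, for each member the 3 most correlated genes outside the members, and from each list the 2 genes with the smallest p, of which 1 is not reported here. The members and lists were chosen with earlier results of these data known.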

Additional observations from a re-analysis of the deposited data

How the results depend on the processing

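No member was called between labelled genotypes under any scaling, filter or tool tried (0 to 0 over repeats leaving out 1 library), nor was any other gene by edgeR, DESeq2 or limma-voom; at an unadjusted p under 0.05 these gave 526, 498 and 683 genes. The number of members at an unadjusted p under 0.05 was 3, 0 with the library number as covariate, and 2 to 5 when 1 library was left out. Of 252 member fold changes over 28 settings, 250 kept their direction, and Pdgfrb and Kcnj8 reversed, to -0.013 and -0.0053, with the library number. Over all 36 pairs, 12 were called, against 6 after the endothelial score, 7 after the library number, and 9 to 16 when 1 library was left out (9 without knockout 1, 16 without wild type 4). Over the 18 pairs between the kinds, 4 were called, against 2 on flow cell 2 alone, 2 after the endothelial score, 2 without the choroid plexus libraries, 0 after the library number, and 2 to 6 when 1 library was left out. The cause was not tested.

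Mouse numbers did not pair the samples: same-numbered deviations correlated at -0.34 to 0.10. With the mouse number as a replicate block (8 paired differences) 5 pairs were called and 0 between the kinds, a fit that also has fewer values. Of 972 pair correlations over 27 settings, 14 reversed, 10 of them with Rgs5: Acta2-Rgs5 at -0.051 and Myh11-Rgs5 at -0.062 within labelled genotype, and Pdgfrb-Rgs5 at -0.11, Rgs5-Kcnj8 at -0.15 and Rgs5-Notch3 at -0.026 in the replicate block. On flow cell 1 alone, Tagln-Kcnj8 was -0.13, Rgs5-Kcnj8 -0.015 and Rgs5-Vtn 0.056, and with the genes from different flow cells Tagln-Abcc9 was -0.059. Leaving out 1 library gave -0.0020 to 0.48 for Acta2-Rgs5, -0.061 to 0.33 for Myh11-Rgs5, -0.038 to 0.46 for Tagln-Kcnj8 and -0.040 to 0.25 for Pdgfrb-Rgs5. Kcnj8 has the fewest reads, so its pairs are the least precise.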

Other observations

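None of the 9 members was called with the scores of astrocyte, oligodendrocyte, microglia or striatal projection neuron genes. Some uncalled values were of moderate size. Tagln had r = -0.56 with the oligodendrocyte score and Notch3 r = 0.56 with the microglia score (adjusted permutation p = 0.111 each). Myh11 had r = 0.53 with the striatal projection neuron score (adjusted permutation p = 0.1545). The 10 microglial genes had 8 log2 fold changes above 0, with Itgam at 0.21 and C1qb at 0.14, and 3 with an unadjusted edgeR p under 0.05, all higher (1.91% of all tested genes were). The 10 oligodendrocyte genes were all below 0, with Mobp at -0.28 and Mal at -0.24, the 2 with an unadjusted edgeR p under 0.05, and the 10 striatal projection neuron genes all above 0, with Penk at 0.17 and Rgs9 at 0.14. None was called after adjustment. Of all tested genes, 50.3% lay above 0, and 3.41% had an unadjusted edgeR p under 0.05 in either direction. Genes of the same list may move with each other, which was not tested here. Shared signs within a list are therefore a description. Astrocyte genes were split 5 to 5, with Ntsr2 at -0.13 and Gjb6 at -0.17, and Alas2, the single tested blood gene, stood at -0.05.

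Of 13 fibroblast genes, 10 lay above 0, with Fmod at 0.43, while Islr stood at -0.40 (unadjusted edgeR p = 0.00783). The choroid plexus list had 7 tested genes, all below 0 and none called. Prlr stood at -0.75 (interval -2.54 to 1.04) and Aqp1 at -0.45 (interval -2.48 to 1.59). The summed level of the list ran from 16.4 to 1645 CPM in labelled knockouts and 14.4 to 2388 CPM in labelled wild types. Its score was 3.84 in knockout 1 and 4.40 in wild type 7, against at most 0.70 elsewhere. The 7 signs are therefore not separate observations. Abcc9 had r = 0.63 with the choroid plexus score and 0.15 without the 2 libraries that stood apart.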
